A study of Mus musculus with 16 samples.

Results

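Peritoneal macrophages (PMs) that lack the adaptor protein ADAP were compared before and after stimulation with lipopolysaccharide (LPS), using the RNA that had not been passed over an antibody. The PMs came from the peritoneal cavity of mice labelled ADAP knockout (Adap-/-, here AKO), on a C57BL/6 background and aged 6 to 8 weeks, 3 days after an injection of 3% thioglycolate, which draws monocytes into the cavity. They were left untreated (mock) or given LPS at 1 μg/ml for 6 h. Of the 16 libraries of the series, 4 make up this comparison: 2 AKO LPS input libraries and 2 AKO mock input libraries. The other libraries are the same treatments in wild-type (WT) PMs and the matching libraries enriched with an antibody against N6-methyladenosine (m6A), called IP. The knockout is in the whole animal, so every cell in the dish carries it, in mock and in LPS alike. Nothing states that the 2 replicates of a group are separate mice or dishes, so the p-values measure only the spread between these libraries, which may be technical.

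The counts lie on m6A peaks. Each gene's value is the sum of its input reads over all peaks annotated to it, and a gene without a peak was not measured. The 7069 distinct peaks belong to 4943 genes, of which 4742 had enough reads to be tested. A gene could enter through its LPS libraries alone, even with no read in mock. List members without a peak are left out, so the share of a list that rose is partly set by this selection. Input reads on peaks numbered 4221505 and 3432746 in the AKO LPS libraries and 2121313 and 2333347 in the AKO mock libraries. These are reads on peaks and not the depth of the libraries, which is not given in the sources used here. Values below are CPM (reads per 1000000 scaled reads) after scaling by the trimmed mean of M-values (TMM), the log2 fold change is LPS over mock with its standard error (SE), and a gene is called when its adjusted p from edgeR is below 0.05 and the log2 fold change is above 1 or below -1.

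LPS, a component of the outer membrane of Gram-negative bacteria, is bound by CD14 and by TLR4 with its partner MD-2. Signals through the adaptor MyD88 activate NF-κB and MAP kinases and switch on cytokine and chemokine genes, and signals through TRIF activate IRF3 and the gene for interferon-β. Secreted interferon then acts on the same cells through JAK kinases and STAT factors and switches on a further set of antiviral genes. ADAP, encoded by Fyb1, is an adaptor known from T cells, where it links receptor signals to integrin activation.

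Fyb1 (ENSMUSG00000022148, chromosome 15) had 46.7 and 36.9 CPM in the AKO mock and 41.5 and 35.7 in the AKO LPS libraries, against 244 and 257 in WT mock and 349 and 377 in WT LPS. AKO values were thus well under the WT values in both treatments. The reads that remained in AKO lay mostly on the peak at chr15:6614658-6649123, which is shared with another gene and had 53.5 and 41.4 CPM in mock. Values of single peaks are CPM scaled over all peaks, so they are not on the scale of the gene values and can exceed them. On the coding peaks at chr15:6609828-6610128 and chr15:6610303-6610478, the highest value in an AKO library was 1.60 CPM. LPS did not move Fyb1 past the threshold in AKO PMs (log2 fold change -0.10, SE 0.15, adjusted p = 0.583).

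The labelled cell type was checked against its markers. Of 10 macrophage markers, 9 had peaks, and their summed level was 10310 and 10630 CPM in mock and 10800 and 11830 in LPS. Cd68, a lysosomal glycoprotein of macrophages, had 3830 and 3897 CPM in mock and 3573 and 3735 in LPS. No marker of neutrophils, of T and NK cells or of eosinophils and mast cells had a peak, so these cells could not be assessed. Of the 11 B cell markers only Cd22, which macrophages can also carry, had a peak, with 145 and 133 CPM in mock and 45.4 and 49.6 in LPS. Of 12 markers of resident peritoneal macrophages, 3 had peaks, and their sum was 402 and 602 CPM in mock and 368 and 615 in LPS. In this sum the replicates differed more than the treatments, mainly through Prg4, with 155 and 311 CPM in mock and 215 and 445 in LPS. Cd5l was lower in both LPS libraries, at 243 and 286 CPM in mock and 147 and 165 in LPS. Its log2 fold change of -0.76 (adjusted p = 3.63e-05 by edgeR) was short of the fold threshold. Tgfb2 (0.32) and Prg4 (0.49) were not called either, so the sum hides members that moved apart.

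LPS changed 1375 of 4742 genes in AKO PMs. Of these, 792 rose (16.7%) and 583 fell (12.3%). Of the genes that rose, the median log2 fold change was 1.99, and 214 were past 3 and 96 past 5. The genes that fell moved less far, with a median of -1.57 and 63 genes past -3. In all 792 genes that rose, both LPS libraries were above both mock libraries, and in 582 of the 583 that fell both were below; over all genes tested these shares were 38.1% and 39.1%. Genes that rose took 15.3% and 16.4% of the reads on peaks in the mock libraries and 64.8% and 66.2% in the LPS libraries. The plot of mock against LPS levels shows the same spread above the diagonal.

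**Figure D1:**
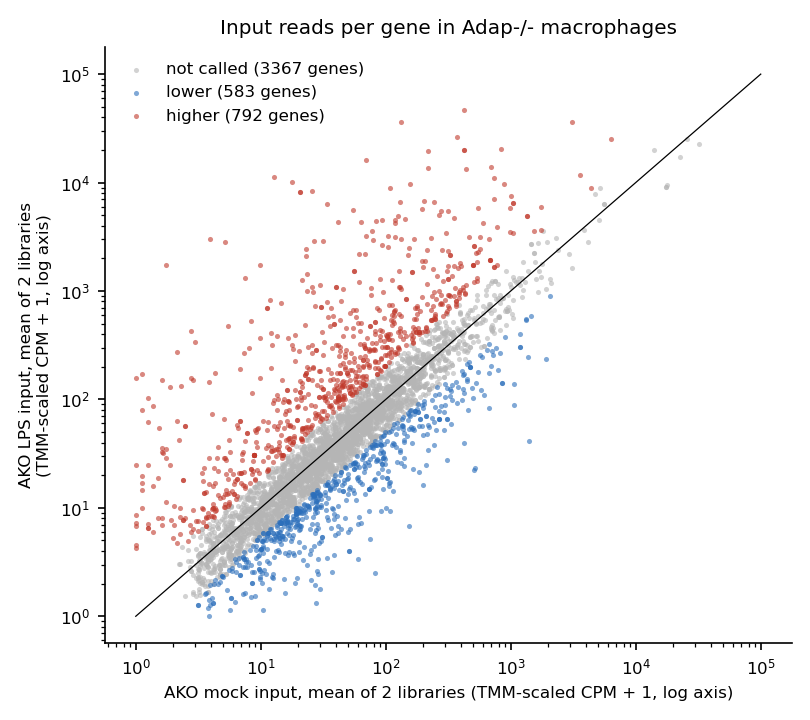
Mean input level of each of the 4742 genes in AKO mock (x) and AKO LPS (y) libraries, 2 libraries per mean, both axes in TMM-scaled CPM plus 1 on a log scale; the line marks equal levels. The 792 genes called higher reach farther from the line than the 583 called lower.

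The calls depended on the scaling. With TMM the median log2 fold change of all genes was -0.03, with upper-quartile scaling -0.31 and with library totals alone -1.08. The share of higher among called genes was 57.6% with TMM, 41.7% with upper-quartile scaling (646 higher and 904 lower) and 12.8% with library totals (378 higher and 2567 lower). All changes below are therefore relative to the bulk of the genes, which TMM sets near 0. Counts of called genes in the lists below are to be set against 16.7% higher and 12.3% lower over all genes tested.

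Most of the secreted cytokine genes tested rose. Of 37 cytokine genes listed, 25 were tested. Of these, 19 rose, 3 fell and 3 were not called, with a median log2 fold change of 4.57 against -0.03 for all genes. Il6, which encodes a pyrogenic cytokine of the acute phase, had 0.525 and 0.971 CPM in mock and 1562 and 1892 in LPS. The mock values are 2 and 4 reads, so the size of the log2 fold change of 11.09 (SE 0.35, adjusted p = 2.54e-13) rests on few reads, while its direction does not. Il1b, the precursor of interleukin-1β, went from 10.5 and 13.1 CPM to 8610 and 13803 (log2 fold change 9.88, SE 0.30, adjusted p = 1.82e-13).

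Both chains of interleukin-12, the cytokine that drives T helper 1 responses, rose as well. Il12a had 2.36 and 6.07 CPM in mock and 2509 and 3188 in LPS. Il12b had 1.57 and 0.728 CPM in mock and 266 and 276 in LPS. Tnf, already present in mock PMs at 366 and 471 CPM, reached 40385 and 52957 in LPS, a 111-fold rise (log2 fold change 6.80, SE 0.22, adjusted p = 3.68e-13). In every one of these genes the lower LPS library was far above the higher mock library.

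Csf3, the granulocyte growth factor gene, had 0 and 1 read in mock and 533 and 516 in LPS, so no fold is given (adjusted p = 7.26e-13). Edn1, the gene of the vasoconstrictor endothelin-1, rose from 1.84 and 1.70 CPM to 409 and 451. The 3 cytokine genes that fell encode growth factors or a chemoattractant. Vegfa, which encodes the angiogenic growth factor, fell from 425 and 418 CPM to 133 and 95.1 (log2 fold change -1.88, SE 0.13, adjusted p = 1.93e-09). Pdgfb fell from 14.7 and 17.5 CPM to 5.08 and 6.93. Il16 fell from 32.5 and 27.2 CPM to 3.67 and 5.10, but its only peak is shared with another gene. Tgfb1, an anti-inflammatory cytokine gene, was not called, with 505 and 515 CPM in mock and 560 and 558 in LPS.

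Of 25 chemokine genes listed, 11 were tested, and all 11 rose, with a median log2 fold change of 5.55. The neutrophil attractant Cxcl1 went from 22.3 and 26.7 CPM to 6453 and 10295 (log2 fold change 8.41, SE 0.31, adjusted p = 1.19e-12). Its relatives moved alike: Cxcl2 rose from 105 and 158 CPM to 30536 and 42279, and Cxcl3 from 27.0 and 38.3 to 5391 and 7303. Ccl3 and Ccl4, which attract monocytes and T cells, rose 89.6-fold and 46.8-fold. Cxcl10, which attracts T cells and is induced by interferon, rose from 22.6 and 16.7 CPM to 8726 and 7693, although both of its peaks are also annotated to Art3. The smallest rise in the list was that of Cxcl16, with a log2 fold change of 1.05.

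Promoter windows of cytokine and chemokine genes are shown because NF-κB binds such elements in their promoters. They were chosen for holding a match upstream of the start, in order of fitted change among genes with a peak of their own. Il1b and Csf3, which ranked above Il12a by fitted change, gave no such window. The windows come from RefSeq (GRCm38.p6), are written 5′ to 3′ on the strand of the gene, and end upstream of the annotated start site. Capitals mark letters matching GGNNNTTCC, a part of the κB element, on either strand.
Il6 (chr5:30013061-30013090): atcaaatgtgGGATTTTCCcatgagtctca
Il12a (chr3:68690440-68690469): taagttccaaGGAATCTCCtaccccaaacc
Cxcl1 (chr5:90891146-90891175): ccggttgcagGGAAACACCctgtactccgg
The κB letters occurred in the promoters of 10 of the 20 cytokine and chemokine genes that rose and have a RefSeq promoter (50%), against 27.2% of the 3411 tested genes with a promoter and 20.7% of the 27025 genes with a promoter in the table. Among all genes that rose the share was 27.4%, and among those that fell 25.7%, both close to the share of the genes tested. Such short degenerate letters thus also lie upstream of genes that fell, as the windows of St6gal1 and Cd300lb show.
St6gal1 (chr16:23290398-23290427): aattatgctgGGAAGTGCCaagggctttcc
Cd300lb (chr11:114934396-114934425): actgacggcaGGAAACACCcacgctataaa
A match is a description of the sequence and does not show binding. The AP-1 letters TGANTCA were found in 30% of the promoters of the cytokine and chemokine genes, 11% of all that rose, 10.3% of those that fell and 7.48% of the genes tested.

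Enzymes that macrophages use against microbes gave some of the farthest changes. Of 25 effector genes tested, 12 rose and 3 fell, with a median log2 fold change of 0.83. Nos2, the inducible nitric oxide synthase, had 3.41 and 2.43 CPM in mock and 3428 and 2612 in LPS (log2 fold change 10.01, SE 0.35, adjusted p = 6.03e-13). It had 10 peaks from chr11:78813063 to chr11:78850866, and each of them was called higher. On single peaks the mock values were 0 to 1.88 CPM and the LPS values 79.9 to 1085 CPM, so no fold is given for a peak. Ptgs2, which encodes the cyclooxygenase that makes prostaglandins in inflammation, rose 606-fold, from 18.6 and 15 CPM to 8630 and 11761. Acod1, which makes itaconate, started from 2851 and 3310 CPM and reached 35820 and 36850 (log2 fold change 3.56, SE 0.15, adjusted p = 5.71e-12).

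Ch25h, which makes the antiviral oxysterol 25-hydroxycholesterol, rose 77.6-fold and Slc7a2, a transporter of arginine, 28.9-fold. Lcn2, a protein that withholds iron from bacteria, rose from 1.05 and 0.243 CPM to 29.3 and 32.1. In the other direction, Arg1, which competes with nitric oxide synthase for arginine, fell from 176 and 330 CPM to 44.3 and 57.2 (log2 fold change -2.33, SE 0.34, adjusted p = 1.88e-05); the 2 mock values were far apart, but both lay above both LPS values. Hpgds, a prostaglandin D synthase, fell 2.68 times. Mt1 was not called (log2 fold change -0.90, adjusted p = 0.127), nor was Ncf4, a subunit gene of the phagocyte NADPH oxidase (0.83, adjusted p = 0.153).

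**Figure D2:**
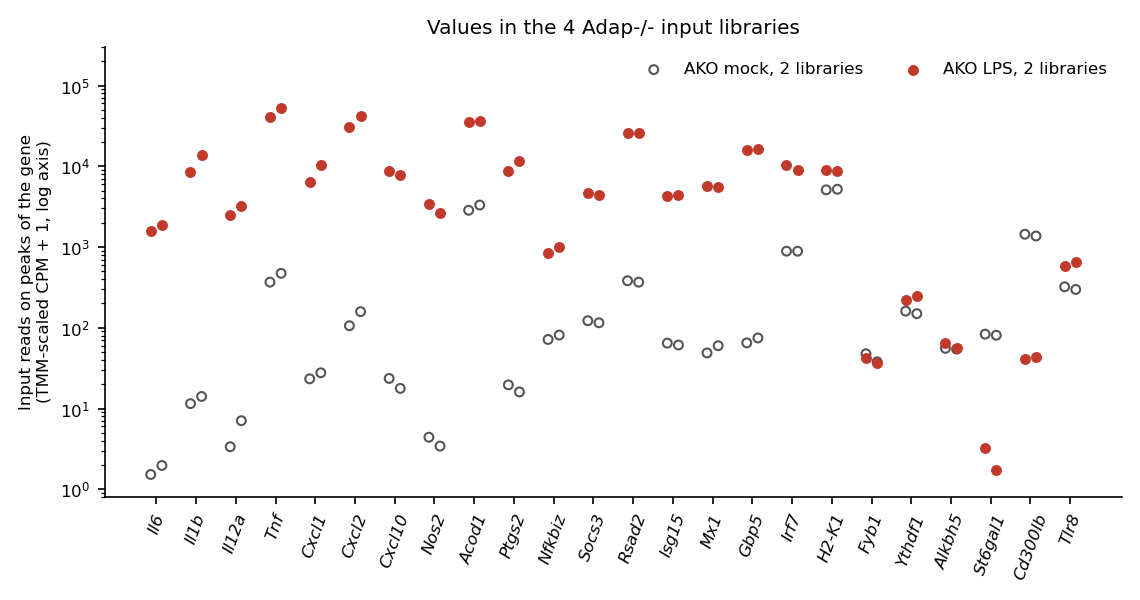
Input level of named genes in each of the 4 AKO input libraries (y, TMM-scaled CPM plus 1, log scale); open circles are the 2 mock and filled circles the 2 LPS libraries of each gene. From Il6 to Irf7 both LPS values lie above both mock values; H2-K1, Fyb1, Ythdf1, Alkbh5 and Tlr8 were not called, and St6gal1 and Cd300lb fell.

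The sensors of microbial molecules also rose more often than not. Of 39 genes for pattern recognition receptors and their adaptors, 25 rose and 2 fell, against 16.7% and 12.3% of all genes. Their median log2 fold change was 1.31. The largest rise among those named was that of Zbp1. This sensor, which binds Z-form nucleic acid, rose from 194 and 197 CPM to 5763 and 5609 (log2 fold change 4.86, SE 0.18, adjusted p = 1.24e-12). The RNA helicase genes Dhx58, Ifih1 and Ddx58, which encode LGP2, MDA5 and RIG-I, rose 18.7-fold, 12.9-fold and 11-fold. Nlrp3, the inflammasome sensor that needs priming, rose from 137 and 165 CPM to 2009 and 2318 (log2 fold change 3.84, SE 0.12, adjusted p = 3.01e-13), and the signalling adaptor Traf1 rose 23.5-fold, second to Zbp1 among those named.

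The 2 members that fell were Tlr13, a receptor for bacterial ribosomal RNA, from 2088 and 2000 CPM to 871 and 923, and Clec7a, the β-glucan receptor Dectin-1, from 783 and 846 to 265 and 266. Tlr8 stood at the edge of the threshold, with 321 and 297 CPM in mock and 582 and 643 in LPS (log2 fold change 0.99, adjusted p = 4.68e-06). Pycard, the inflammasome adaptor ASC, was not called (-0.95, adjusted p = 0.0259). Tlr4, chosen for its role after its values were seen, had 58.3 and 52.9 CPM in mock and 60.4 and 62.7 in LPS and was not called (log2 fold change 0.15, SE 0.12, adjusted p = 0.337).

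Genes of the NF-κB system rose in 13 of 20 cases, and none fell (median log2 fold change 1.24). Nfkbiz, the inducible nuclear IκBζ needed for secondary response genes such as Il6, rose from 70.6 and 80.3 CPM to 847 and 1003 (log2 fold change 3.61, SE 0.12, adjusted p = 3.47e-13). Nfkb2 and Nfkb1, precursors of the p52 and p50 subunits, rose 10.1-fold and 4.34-fold. Inhibitors of the pathway rose with them. Tnfaip3, the deubiquitinase A20, went from 568 and 620 CPM to 4031 and 4501, Nfkbia, which encodes IκBα, from 62.7 and 70.4 to 304 and 315, and Tank rose 4.08-fold. Of the members not called, Tnip3 had a log2 fold change of 0.85, Map3k8 of 0.55, Otulin of -0.35 and Tab1 of -0.65, each with an adjusted p from edgeR below 0.05 but short of the fold threshold.

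Negative regulators of cytokine signalling gave 21 higher and 2 lower of 34 genes tested (median log2 fold change 1.60), against 16.7% and 12.3% of all genes. Socs1 and Socs3, which block JAK kinases and cytokine receptors, rose 56.8-fold and 38.2-fold. Socs3 had 121 and 114 CPM in mock and 4616 and 4395 in LPS. Cish, a further member of that family, rose from 0.262 and 2.67 CPM to 54.2 and 58.0, on peaks that are all shared with another gene. Cd274, the checkpoint ligand PD-L1, rose from 488 and 599 CPM to 5995 and 5744 (log2 fold change 3.43, SE 0.14, adjusted p = 3.60e-12). Spry1, an inhibitor of receptor tyrosine kinase signalling, had 3 and 2 reads in mock and 22 and 16 in LPS (adjusted p = 0.000558), too few reads in mock for a fold.

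Rgs2, which dampens signals of G protein-coupled receptors, fell from 108 and 107 CPM to 7.05 and 9.48 (log2 fold change -3.72, SE 0.17, adjusted p = 1.61e-11). Ptpn22, a phosphatase of Src family and Syk kinases, fell from 28 and 30 reads in mock to 1 and 2 in LPS (adjusted p = 0.000443).

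Of 82 interferon-stimulated genes listed, 63 were tested, and every one of these rose, with a median log2 fold change of 4.04. Of these, 32 were past 4 and 6 past 6. Mx1, an antiviral GTPase of the dynamin family, had 47.8 and 59.0 CPM in mock and 5694 and 5500 in LPS (log2 fold change 6.71, SE 0.18, adjusted p = 7.77e-14). Isg15, a ubiquitin-like modifier, rose from 63.5 and 60.2 CPM to 4230 and 4356 (6.12, SE 0.14, adjusted p = 2.42e-14). Rsad2, which encodes viperin, and its neighbour on chromosome 12, the nucleotide kinase gene Cmpk2, rose 69.8-fold and 83.5-fold.

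Ifi205, a member of the DNA-sensing p200 family, went from 40.4 and 40.3 CPM to 4378 and 4205. Ifi44 had 0 and 2 reads in mock against 233 and 151 in LPS, so no fold is given. At the other end of the list, Lgals3bp, named here after its values were seen, rose from 4038 and 4809 CPM to 8568 and 9236 and passed the fold threshold narrowly (log2 fold change 1.01, SE 0.15, adjusted p = 3.42e-05), with 0.95 without AKO LPS replicate 2 and 0.88 without AKO mock replicate 1. The replicates of a group were close in most of these genes, with LPS values of Isg15, Mx1 and Rsad2 within a few percent of each other.

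The interferon-inducible GTPases, which attack the membranes of vacuoles that hold pathogens, rose in all 19 genes tested, of 24 listed. Their median log2 fold change was 5.72. Gbp5 had 64.0 and 73.8 CPM in mock and 15920 and 16279 in LPS (log2 fold change 7.87, SE 0.35, adjusted p = 1.14e-11). Iigp1 rose 108-fold, from 5.77 and 3.16 CPM to 546 and 410. Tgtp2, Gbp4 and Gbp8 also rose, but share all their peaks with other genes, so their reads cannot be assigned to a single gene. With only peaks annotated to 1 gene, 11 genes of the list could be tested, and these 11 rose. Trim30c, a member of the Trim30 family, rose from 6.30 and 6.80 CPM to 1256 and 1358. Serpina3f, a protease inhibitor of a multigene family, had no read in either mock library and 606 and 385 in LPS, at least 205-fold higher when each mock library is set to 3 reads.

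Promoters of interferon-induced genes are shown for the interferon response element bound by STAT complexes and by IRFs. These windows were likewise chosen for holding a match upstream of the start, so they do not stand for the whole list. Capitals mark letters matching GAAANNGAA on either strand, in RefSeq windows of GRCm38.p6 on the strand of the gene.
Gbp5 (chr3:142496760-142496789): cttgtgtagtTTCAATTTCagtttagagaa
Ifi205 (chr1:174031870-174031899): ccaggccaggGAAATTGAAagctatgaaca
Rsad2 (chr12:26456552-26456581): tggtccaactTTCATTTTCagaaaacagaa
These letters occurred in 56.9% of the 51 promoters of interferon-stimulated genes, against 9.97% of the genes tested and 9.76% of all genes with a promoter. They were found in 20.6% of all 554 genes that rose and have a promoter, in 34.1% of those past 3 on the log2 scale and in 5.76% of the 417 that fell. The CRE letters TGACGTCA occurred in 3.75% of the genes tested, 2.71% of those that rose and 1.20% of those that fell, so both shares were below that of the genes tested. No test was made of these shares, and promoters of genes that rose had a GC content of 58.6% against 61.3% in the genes tested.

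**Figure D3:**
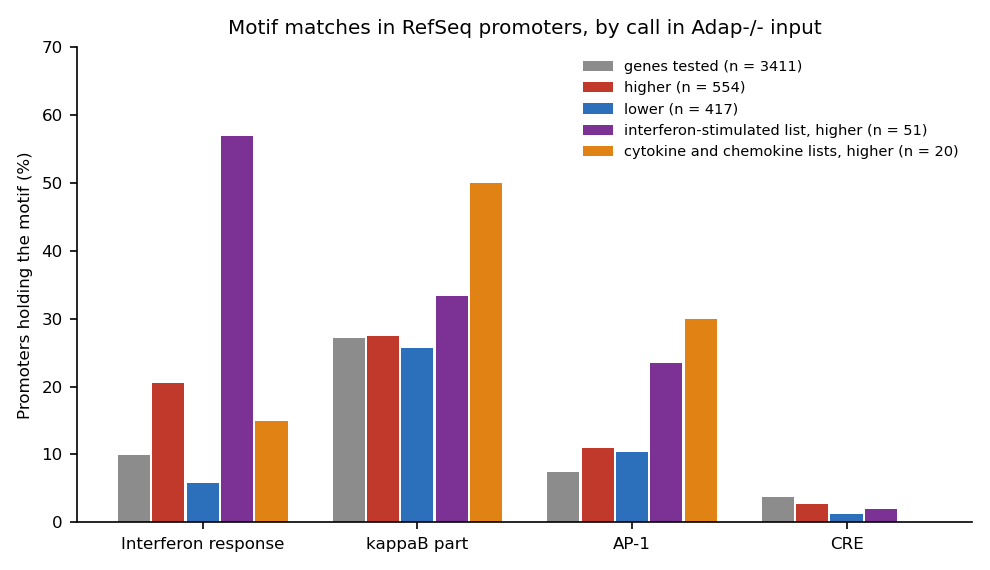
Share of genes with at least 1 match to each motif in their RefSeq promoters (y, percent; 250 bases before to 50 after the start), for all genes tested, genes called higher or lower, and the called genes of the interferon-stimulated list and of the cytokine and chemokine lists. The bar for the interferon response letters stands at 56.9% in the interferon-stimulated list and at 9.97% over all genes tested.

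Transcription factors of the interferon pathway rose in 8 of 13 cases (median log2 fold change 2.62), and none fell. Irf1 rose from 676 and 714 CPM to 14535 and 13411 (log2 fold change 4.33, SE 0.20, adjusted p = 1.63e-11). Irf7, which amplifies type I interferon, went from 888 and 887 CPM to 10327 and 9072 (3.45, SE 0.13, adjusted p = 1.21e-12). Stat2 and the kinase gene Jak2 rose 12.5-fold and 7.68-fold, and Batf2, a partner of IRF1, 38.5-fold. Irf3 and Irf5, factors that are activated by phosphorylation, were not called, with log2 fold changes of -0.28 and 0.67, and neither were Irf2 (0.71) and Stat6 (-0.75), the factor of interleukin-4 signalling.

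Genes of antigen presentation and costimulation gave 18 higher and none lower of 31 tested (median log2 fold change 1.55). Cd40, the receptor through which T cells activate macrophages, rose from 82.4 and 83.7 CPM to 4282 and 4486 (log2 fold change 5.72, SE 0.16, adjusted p = 7.77e-14). Nlrc5, the activator of MHC class I genes, rose 17.0-fold and the peptide transporter Tap1 14.3-fold. Cd86 and Icosl, ligands of T cell costimulation, rose 4.73-fold and 14.1-fold. Slamf1, a receptor on activated leukocytes, had no read in mock and 86 and 63 in LPS, at least 31.2-fold higher with each mock library set to 3 reads. The class I heavy chain gene H2-K1 had 5108 and 5192 CPM in mock and 8979 and 8820 in LPS and fell short of the fold threshold (log2 fold change 0.79, adjusted p = 2.65e-05).

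AP-1, MAF, C/EBP and other inducible transcription factors split in direction. Of 42 tested, 17 rose and 4 fell (median log2 fold change 0.60), against 16.7% and 12.3% of all genes. Ier3, Batf, Ets2, Hivep3 and Maff rose 6.71-fold, 6.15-fold, 5.63-fold, 4.96-fold and 4.93-fold.

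Cebpa, a factor of myeloid differentiation, fell from 1366 and 1401 CPM to 271 and 218 (5.65 times, adjusted p = 1.35e-10), with some of its reads on a shared peak. The immediate early genes Jun and Egr2, which typically peak soon after a stimulus, were lower at 6 h, Jun by 2.24 times and Egr2 by 2.37 times. Cebpd (log2 fold change 0.97) and Bhlhe40 (-0.87) stayed short of the fold threshold.

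Among cytokine and chemokine receptors 13 of 32 rose and 3 fell (median log2 fold change 0.33), against 16.7% and 12.3% of all genes. Il15ra rose from 22.8 and 23.3 CPM to 313 and 300, and Ccrl2, a receptor that presents chemerin, from 957 and 1049 to 7246 and 7624. Ccr7, which guides cells to lymph nodes and is also a dendritic cell marker, rose from 7.35 and 8.98 CPM to 32.7 and 46.3 (log2 fold change 2.25, SE 0.32, adjusted p = 1.84e-05). Dendritic cells and macrophages that gain Ccr7 cannot be told apart in bulk RNA, nor can fewer cells of a type and less RNA per cell. Cxcr4, the receptor for CXCL12, fell from 286 and 330 CPM to 24.5 and 29.2 (-3.53, SE 0.21, adjusted p = 5.59e-10). Il6ra fell 7.94 times and Ifngr1 2.79 times.

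Receptors of phagocytosis and of lipid and nucleotide ligands gave 12 higher and 10 lower of 33, with a median of -0.16. Over all genes tested the shares were 16.7% higher and 12.3% lower. Cd300lb, an activating receptor of myeloid cells, fell from 1439 and 1368 CPM to 39.5 and 41.9 (log2 fold change -5.11, SE 0.12, adjusted p = 3.54e-14). Each of its 4 peaks between chr11:114813856 and chr11:114815856 fell, with log2 fold changes from -5.58 to -4.67. Cd300a, an inhibitory relative, fell from 425 and 418 CPM to 43.4 and 33.5. P2ry6, a receptor for UDP, and the scavenger receptor Scarb1 fell 5.19 and 3.20 times.

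Other receptors of that list rose. Fcgr1, the high-affinity receptor for IgG, went from 29.4 and 25.0 CPM to 146 and 122 (log2 fold change 2.31, SE 0.21, adjusted p = 7.29e-08). The adenosine receptors Adora2a and Adora2b, which restrain inflammation, rose 8.12-fold and 8.53-fold, Adora2a from 83.7 and 85.9 CPM to 676 and 703.

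The gene with the largest fall among those named by size was St6gal1, a sialyltransferase, which went from 82.4 and 79.8 CPM to 2.26 and 0.729 (log2 fold change -5.64, SE 0.26, adjusted p = 1.53e-11). The LPS values are 8 and 2 reads, and the log2 fold change ranged from -6.73 to -5.15 when 1 AKO library was left out. Klc4, a light chain of the kinesin motor, fell from 506 and 531 CPM to 18.3 and 25.9. Sgsh, a lysosomal sulfatase, fell from 156 and 148 CPM to 8.46 and 3.28, and Tns1, which links actin to integrins, from 196 and 202 to 13.5 and 16.8. Havcr2, the receptor TIM-3, Foxred2, Fam78a and Syt11 fell as well, with log2 fold changes of -3.99, -4.74, -4.17 and -3.94, each resting on 1 to 10 reads per LPS library.

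Few metabolic genes were called, in shares near or below those of all genes (16.7% higher and 12.3% lower) except for the higher genes of glycolysis. Of the 26 glycolysis genes listed, 8 were tested, of which 2 rose and 1 fell. Slc2a6, a sugar transporter, rose from 302 and 326 CPM to 2303 and 2368, Hk2, the inducible hexokinase, rose 2.76-fold, and Pfkfb4, a regulator of fructose bisphosphate, fell 3.11 times. Idh1, the cytosolic isocitrate dehydrogenase, fell from 1932 and 1878 CPM to 239 and 230 (log2 fold change -3.02, SE 0.12, adjusted p = 3.75e-12). Of 17 cholesterol and lipid genes, 1 rose and 2 fell. Dhcr7, the last enzyme of cholesterol synthesis, fell 18.8 times, from 25.7 and 29.4 CPM to 1.41 and 1.46. The size of that fall rests on few reads, since 3 reads are 0.846 and 1.09 CPM in these LPS libraries. Pparg, a nuclear receptor of lipid metabolism, fell 6.39 times, from 52.5 and 39.3 CPM to 8.18 and 5.83.

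Lysosome and autophagy genes had the lowest median of the lists in the plot of list counts, -0.52, with 1 higher and 4 lower of 23, against 12.3% lower over all genes. The lower count rested on the scaling and was 7 with upper-quartile scaling and 19 with library totals alone. Tfeb, the factor that drives lysosomal genes, fell from 84.5 and 98.3 CPM to 30.7 and 35.4 (log2 fold change -1.48, SE 0.14, adjusted p = 1.11e-07). Atp6v0d2, a subunit of the proton pump, fell 3.46 times, Manba 3.17 times and the cystine exporter gene Ctns 2.24 times. In 16 of the 23 genes both LPS libraries lay below both mock libraries, against 39.1% of all genes tested. The gene that rose, Acp5, shares its peaks with another gene.

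Regulators of cell death gave 13 higher and 1 lower of 25 (median log2 fold change 1.12), against 16.7% and 12.3% of all genes. Mlkl, the executor of necroptosis, rose from 4.20 and 3.88 CPM to 66.9 and 63.1, and Cflar, which blocks caspase-8, from 101 and 109 to 728 and 759. Bcl2, an inhibitor of mitochondrial apoptosis, fell from 24 and 30 reads to 8 and 4 (log2 fold change -1.82, SE 0.46, adjusted p = 0.00336). Genes with opposite effects on cell death thus rose together.

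The m6A regulators did not pass the threshold in any of 13 genes tested. Their log2 fold changes ranged from -0.29 to 0.63, with a median of 0.05. By edgeR 6 had an unadjusted and 4 an adjusted p below 0.05, and DESeq2 called 0 as well. Ythdf1, a reader of m6A in the cytoplasm, had 160 and 149 CPM in mock and 218 and 249 in LPS (log2 fold change 0.60, SE 0.10, adjusted p = 0.000134). Ythdc1, a nuclear reader, had 43.3 and 41.0 CPM in mock and 66.3 and 64.2 in LPS, and Wtap, a subunit of the methyltransferase complex, 171 and 177 against 243 and 233. Both LPS libraries were above both mock libraries in these 3 genes. In the whole list this held for 5 of the 13 genes, close to the 38.1% of all genes tested. Both LPS libraries were below both mock libraries in 2 of the 13, against 39.1% of all genes. The demethylase gene Alkbh5 had 54.6 and 53.4 CPM in mock and 64.3 and 54.7 in LPS (0.15, adjusted p = 0.357). Mettl3, Mettl14 and Fto have no peak in the table and were not analysed here. The ribosome and translation list likewise gave 0 calls of 14 by edgeR and by DESeq2, with 1 gene at an unadjusted p below 0.05 by edgeR and a median of 0.11.

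Genes of proteins that work with ADAP or with integrins were examined as well. Of 20 tested, 10 rose and 1 fell (median log2 fold change 0.87), against 16.7% and 12.3% of all genes. Among the Src family kinases, Src rose from 14.7 and 13.1 CPM to 154 and 148, while Fgr fell from 296 and 297 to 111 and 96.6 (log2 fold change -1.51, SE 0.10, adjusted p = 2.88e-09). These 2 kinases therefore moved in opposite directions.

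**Figure D4:**
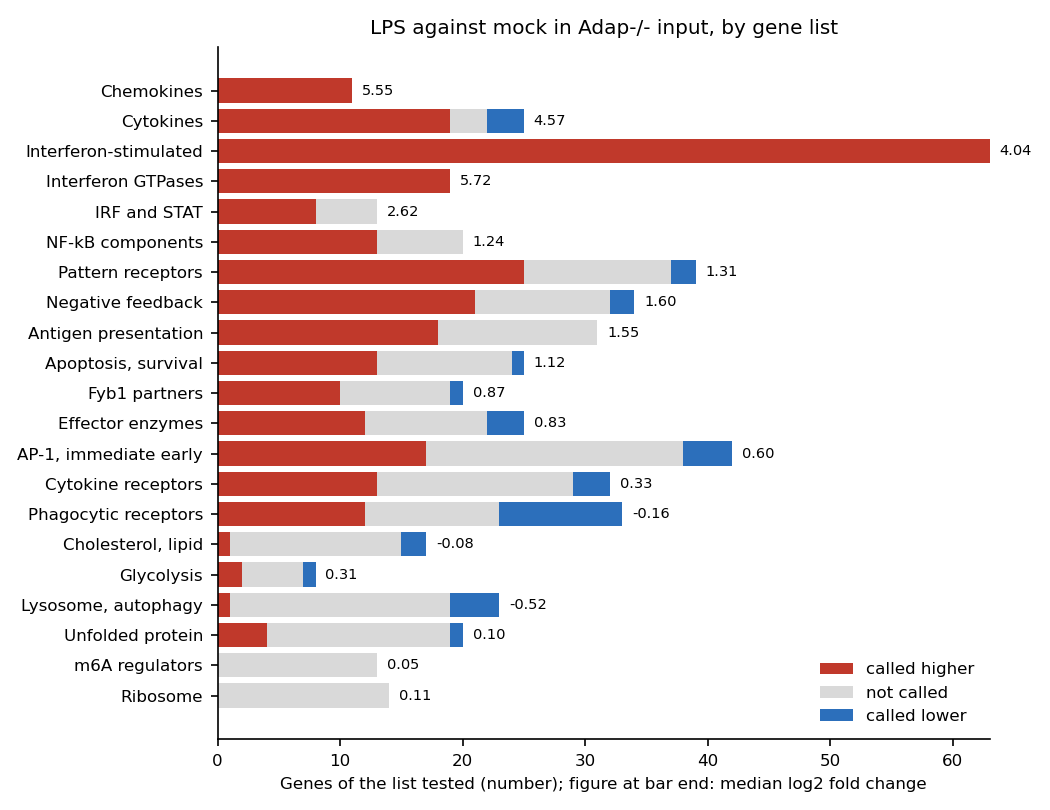
Number of genes tested in each of 21 lists (x), split into called higher, not called and called lower in AKO LPS against mock; the number at the end of a bar is the median log2 fold change of the list, against -0.03 for all 4742 genes. The chemokine and both interferon lists hold only genes called higher, and the m6A regulator and ribosome lists hold none that was called.

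Because the counts lie on peaks, the peaks of a gene could be compared with each other. Of 6794 peaks tested, 1334 rose (19.6%) and 903 fell (13.3%). Of 395 genes that rose and had at least 2 tested peaks, 329 (83.3%) had every peak called higher, and 389 had all peaks with the same sign. Of 202 such genes that fell, every peak was called lower in 164 (81.2%), and 201 had 1 sign. The exceptions included Tsc22d1, where the 3′ UTR peak at chr14:76744539-76744764 rose from 28.4 and 30.8 CPM to 123 and 131 and the coding peak at chr14:76653850-76653900 fell from 8.13 and 12.1 to 1.60 and 2.04. In Erp29, an endoplasmic reticulum chaperone, the peaks around the stop codon at chr5:121582849-121583049 and chr5:121583099-121583324 fell with log2 fold changes of -1.77 and -1.80, and a peak shared with another gene at chr5:121577996-121578171 rose by 2.68. All these peak coordinates are of GRCm39.

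Each peak and gene pair was put in a single class, the first found of stop codon, start codon, coding sequence, 3′ UTR and 5′ UTR. The start codon class thus leaves out peaks that also reach a stop codon. The 3′ UTR class leaves out peaks that also carry a codon or coding label. The start codon class held 13.9% of the pairs of genes that rose, 6.92% of those that fell and 11.3% of all tested. The 3′ UTR class held 15.5%, 24.7% and 16.6%. These shares were not tested, and they are not the shares of all peaks that touch a region. Most genes were protein coding, with 86.7% of those that rose, 88.5% of those that fell and 88.1% of all tested.

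The IP libraries, made from the same RNA, mix RNA level and m6A and were not tested. Both AKO LPS IP libraries were above both mock IP libraries in 698 of the 792 genes that rose (88.1%), against 32.4% of all genes tested. Both were below in 538 of the 583 that fell (92.3%), against 33.4%. Mock IP replicate 2 stood apart, since the genes that rose took 281200 CPM in it against 122500 in mock IP replicate 1, with 600100 and 622700 in LPS. Without that library the counts were 775 and 564. These could not be smaller, since only the other mock value had to be passed. The share over all genes was not computed for this looser rule.

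The same genes mostly moved in WT PMs. There, 876 genes rose (18.5%) and 702 fell (14.8%). Of the 792 genes that rose in AKO, 732 (92.4%) also rose in WT, which is 83.6% of those that rose in WT. Of the 583 that fell in AKO, 492 (84.4%) also fell in WT, 70.1% of those in WT. No gene was called in opposite directions. In the plot of both responses the points follow the diagonal.

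The difference between the responses, AKO minus WT, was tested as an interaction. It was below 0 in 61 genes (1.29%) and above 0 in 17 (0.358%). Of the 61, 52 had risen in AKO. The interferon-stimulated list held 22 of them among its 63 genes; its median difference was -0.61, against -0.02 for all genes, and the difference was negative in 56 of the 63. All 63 also rose in WT, so the response was present in both genotypes. For these 22 the fold change was smaller in AKO, which does not say whether their level in LPS was lower. Mock and LPS levels were not compared between genotypes for these genes as a set. In the GTPase list 1 of 19 genes was below 0 by the test, and the median difference was 0.29; the lists were not tested against each other. The 78 genes called in all became 29 without AKO mock replicate 2, 42 without either AKO LPS library and 48 without AKO mock replicate 1.

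Ifit3b, an interferon-induced gene of the IFIT family, rose from 9.19 and 8.49 CPM to 427 and 310 in AKO and from 2.30 and 2.96 to 955 and 874 in WT, a difference of -3.04 on the log2 scale (SE 0.37, adjusted p = 0.00035). Ifit3 rose from 94.7 and 91.5 CPM to 4567 and 4393 in AKO and from 47.8 and 59.0 to 8046 and 7613 in WT (difference -1.61, SE 0.18, adjusted p = 0.000261). In both genes the AKO mock values were above the WT mock values and the AKO LPS values below the WT LPS values. Slfn4, a Schlafen gene of myeloid cells, had 113 and 136 CPM in AKO mock against 26.9 and 19.7 in WT mock, and 5064 and 4847 in AKO LPS against 3022 and 3185 in WT LPS, so its smaller fold change (difference -1.74) came with a higher start.

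Of the genes with a difference above 0, Pa2g4 had the largest, 2.05 (SE 0.47, adjusted p = 0.0366), on 13 to 26 reads per AKO library. Gadd45a, a stress sensor that arrests the cell cycle, had 117 and 132 CPM in mock and 165 and 159 in LPS in AKO, against 115 and 110 and then 66.2 and 71.6 in WT (difference 1.09, SE 0.16, adjusted p = 0.00179). Its level was thus not lower after LPS in AKO, whereas in WT both LPS values were below both mock values. Marker sums also differed between genotypes. The 3 markers of resident peritoneal macrophages with peaks summed to 402 and 602 CPM in AKO mock against 192 and 188 in WT mock. Of 10 markers of recruited monocytes, the 3 tested, Itga4, Vcan and Hp, summed to 1043 and 1435 against 465 and 473. Hp alone made up 992 and 1380 CPM of the AKO mock sums, so these mainly reflect 1 gene. The part of these markers in the differences of the LPS response was not tested.

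**Figure D5:**
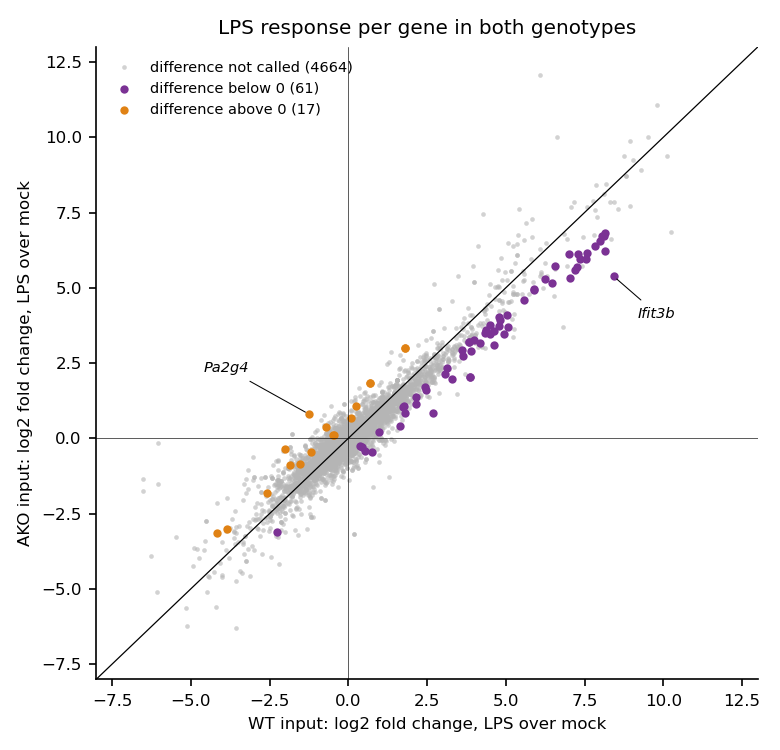
Log2 fold change of LPS over mock in WT (x) and AKO (y) input for each of the 4742 genes; the diagonal marks equal responses, and coloured points are genes whose difference was called. The 61 genes with a difference below 0 lie mostly at high fold changes under the diagonal, and most of the 17 above 0 at a WT value near or below 0.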

How the data were processed

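The authors deposited 1 table of raw read counts per merged m6A peak for 8 input and 8 IP libraries, with gene, region and description of each peak, made on the Omicsmart platform. The submitters' notes name Bowtie2 2.2.8, MACS2 2.1.2, DiffBind 2.8 and GRCm39, without their roles. The RNA had been fragmented to about 100 nt. All 16 count columns were used.

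Each of 7069 peaks was taken once, and input counts were summed per gene identifier; 925 peaks carry more than 1 gene, and 1151 genes have only shared peaks. Names were taken from the description where the symbol disagreed with it. Genes were filtered with filterByExpr (minimum count 10, total 15) and tested with edgeR 4.0.16 in R 4.3.3 (TMM, quasi-likelihood test, Benjamini-Hochberg adjustment over all 4742 genes) on the 8 input libraries, with 1 mean per group; steps were tested on simulated data. Each SE is the fitted log2 fold change divided by the square root of its F statistic. In lower bounds 3 reads stand for a count of 0 in each library. Reads carry no molecular identifiers, so errors cover what the counts show. Replicates of each group differed by more than sampling noise.

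Members and gene lists were chosen with earlier results of these data known. Genes named are the 12 highest and 12 lowest called genes with a symbol, a peak of their own and no lower bound; up to 6 called per list and direction and up to 4 not called; those the study names; the 5 lowest and 5 highest differences; and genes with opposed peaks. Some genes that this rule names are not reported here. Alternatives were RLE and upper-quartile scaling, library totals, DESeq2 1.42.0, other filters and fold thresholds, only peaks with 1 gene, only AKO libraries, a replicate block and each AKO library left out.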

Additional observations from a re-analysis of the deposited data

Results flagged for a closer look

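For 8 genes the response to LPS differed between AKO and WT PMs by the interaction test of edgeR and lay at the ends of the called differences. On the log2 scale, AKO minus WT, the difference was -3.04 for Ifit3b, -1.74 for Slfn4, -1.61 for Ifit3 and -1.60 for Tarm1. It was 2.05 for Pa2g4, 1.09 for Gadd45a, 0.96 for Etfrf1 and 0.83 for Rdh11. Ifit3b, Slfn4, Ifit3 and Gadd45a kept an adjusted p below 0.05 in every alternative that gave a value. Tarm1 missed it in 1 alternative (adjusted p = 0.0566). The highest adjusted p over the alternatives was 0.141 for Pa2g4, 0.0746 for Etfrf1 and 0.159 for Rdh11.

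Tarm1, an activating receptor of myeloid cells, had 21.8 and 18.9 CPM in AKO mock against 7.67 and 2.96 in WT mock, and 1293 and 1236 in AKO LPS against 985 and 1048 in WT LPS.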

How the results depend on the processing

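The calls depended most on scaling and on the fold threshold. With library totals only, 378 genes were higher and 2567 lower in AKO, and 430 and 2631 in WT; upper-quartile scaling gave 904 lower in AKO. Without a fold threshold 1350 genes were higher and 1235 lower in AKO, and 1434 and 1372 in WT; at 1.5-fold 961 were lower in AKO and 1087 in WT. Leaving out each AKO library gave 764 to 799 higher and 554 to 583 lower. The difference between genotypes was less stable: 78 genes became 29 to 48 when an AKO library was left out, 29 without mock replicate 2, 42 without either LPS library and 48 without mock replicate 1, and 100 with DESeq2. With the replicate number as a block, 795 genes were higher and 597 lower in AKO, and 130 differed between genotypes. The numbers were not taken as pairs, since replicate differences of AKO LPS and AKO mock correlated at 0.164 across genes and nothing states what a number shares. The IP count of 1236 genes in the same direction became 1339 without mock IP replicate 2, a setting chosen after seeing the data. With fewer mock values to pass, that count could not fall.

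Of 166 genes recomputed under 13 alternatives, 134 are called, 125 of them in every alternative that gave an adjusted p, and none turned its sign relative to the median of all genes under that scaling. Of the 9 others, Lgals3bp, Msr1 and Rdh11, close to the fold threshold, also lost the call when 1 AKO library was left out. Across the alternatives the interferon-stimulated list had 57 to 64 higher genes and the chemokine list 8 to 11. Other lists moved more. With library totals alone the higher counts were 5 for NF-κB components, 12 for negative regulators, 11 for antigen presentation and 6 for phagocytic receptors, and the lower counts 18 for phagocytic receptors and 19 for lysosome and autophagy (7 with upper-quartile scaling). With at least 10 reads in every input library 16 cytokine genes were tested and 10 were higher, and with only peaks of 1 gene 11 of 11 GTPases. Some genes that were not called changed sign. Fyb1 had 0.0082 with only peaks of 1 gene and ranged from -0.28 to 0.066 with an AKO library left out, Hnrnpa2b1 from -0.063 to 0.16, and Ythdf2 from -0.033 to 0.12. Genes of few reads, such as Il6 in mock, limit the size of a fold more than its direction.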

Other observations

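Some genes of coagulation, the extracellular matrix and growth control also moved in AKO PMs. Over all genes tested, 16.7% rose and 12.3% fell. Of 16 complement and coagulation genes, 7 rose and 1 fell. The anticoagulant receptor gene Thbd fell from 49.6 and 48.8 CPM to 7.33 and 2.55 (log2 fold change -3.23, SE 0.31, adjusted p = 1.85e-07). Of 19 proteases, inhibitors and matrix genes, 7 rose and 2 fell. Vcan, a matrix proteoglycan and also a marker of recruited monocytes, rose from 10.2 and 7.52 CPM to 177 and 135, and the elastase gene Mmp12 fell from 13.9 and 14.3 CPM to 4.23 and 4.74. Hp, another of those monocyte markers, went the other way, from 992 and 1380 CPM to 329 and 480.

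Of 9 cell cycle genes, 3 rose and 1 fell, too few to set against the 16.7% and 12.3% of all genes. Cdkn1a, the inhibitor p21, rose from 13.1 and 12.4 CPM to 100.1 and 98.8, and the proliferation marker Mki67 rose from 37.8 and 47.1 CPM to 164 and 252 (log2 fold change 2.28, SE 0.18, adjusted p = 1.89e-08), so an inhibitor and a marker of division were both higher. Of 20 genes of the unfolded protein response, 4 rose and 1 fell; Chac1, a target of ATF4, had 4.46 and 3.64 CPM in mock and 27.4 and 27.7 in LPS.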
